A study of Mus musculus with 3 samples.

Results

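The regions described here are 351 windows of 10 kb of the mouse genome in which small RNA reads of microRNA length from MEL cells were numerous and outnumbered longer ones. Windows follow each other from the first base of a chromosome, and a read belongs to the window of its left end. A window was selected on its MEL read counts, when it held at least 20 MEL reads of 20 to 23 nt and when these outnumbered the MEL reads of 24 to 32 nt in it, with the mitochondrial chromosome left out. The 351 windows stand among 75879 windows with a MEL read and 119249 with a read in any of 3 libraries. Reads of 19 nt or less were not part of the rule: 277 windows had more than 50% of all their MEL reads at 20 to 23 nt, and 50 had more reads of 19 nt or less than of 20 to 23 nt. The MEL reads chose the windows, so MEL counts, lengths and shares over them are descriptions without a test, while the reads of the other libraries were not part of the choice.

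The study's design text gives the aim as finding the piRNAs bound by MIWI2 in mouse erythropoietic cells. The MEL library is an RNA immunoprecipitate from whole lysate of MEL cells (ATCC TIB-55), a single line of early mouse erythroblasts transformed by Friend virus, made with a rabbit polyclonal antibody against mouse MIWI2 (PIWIL4). The spleen library is an immunoprecipitate with the same antibody from unfractionated splenocytes of C57Bl6/J mice aged 10 weeks, a mixture of cell types. The testis library comes from C57Bl6/J mice of the same age and is no immunoprecipitate: total RNA was sized on a gel of 18% polyacrylamide and a band at about 29 nt was recovered, so short reads were selected against in it. Each group had 1 library, so there is no replicate check and no p-value, and an input or control immunoprecipitate was not analysed here. The MEL, spleen and testis libraries held 823452, 692011 and 1143785 mapped reads. How many mice were pooled is not given in the sources used here.

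MicroRNAs are cut by Dicer from short hairpins and are carried by Argonaute proteins of the AGO clade, whereas piRNAs are longer, are made without Dicer and are carried by PIWI proteins such as MIWI2. A microRNA has a sharply defined 5′ end, because the seed that pairs with target messenger RNAs is counted from it, and a more variable 3′ end. The 2 strands of the hairpin stem can leave a pair of read stacks a short distance apart, one per arm. Several microRNAs are known in red cell precursors, among them miR-221 and miR-222, which repress the Kit receptor, and the miR-17-92 cluster, which promotes proliferation of blood progenitors.

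The deposited files hold positions only, with no strand or sequence, on a genome build that is not GRCm38, so most windows carry no name. MicroRNAs were named where at least 3 separate read stacks in a window had the chromosome and the spacing of mature microRNAs in RefSeq (GRCm38.p6) to within 2 nt, at 1 place of the chromosome only. Of the 351 windows, 44 had the 3 stacks needed and 6 matched. In these 6 windows 23 stacks matched, 22 of them to the base, and no other place on the same chromosome matched more than 2 stacks. Names below are therefore matches by spacing, not by sequence, and coordinates are those of the files. The RefSeq mature sequences with most MEL reads in these windows are shown because they are the identified content of the short reads, 5′ to 3′, with the seed (bases 2 to 8) in capitals. The let-7 family shares 1 seed:
mmu-let-7a-5p: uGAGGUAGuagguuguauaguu
mmu-let-7f-5p: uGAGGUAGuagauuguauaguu
mmu-let-7d-5p: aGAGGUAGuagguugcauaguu
mmu-let-7e-5p: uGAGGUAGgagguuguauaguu
The miR-221 and miR-222 3p arms share another, and the miR-221 5p arm has its own:
mmu-miR-221-3p: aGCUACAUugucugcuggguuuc
mmu-miR-222-3p: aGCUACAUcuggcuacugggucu
mmu-miR-221-5p: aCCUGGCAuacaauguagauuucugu
In the miR-17-92 cluster miR-17-5p and miR-20a-5p have the same seed, and the others each have their own:
mmu-miR-17-5p: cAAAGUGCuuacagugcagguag
mmu-miR-20a-5p: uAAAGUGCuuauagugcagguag
mmu-miR-17-3p: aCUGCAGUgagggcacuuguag
mmu-miR-19b-3p: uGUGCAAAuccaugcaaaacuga
mmu-miR-92a-3p: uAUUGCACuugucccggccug
The remaining 3 windows gave these:
mmu-miR-23a-3p: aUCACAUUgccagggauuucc
mmu-miR-27a-3p: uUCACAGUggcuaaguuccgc
mmu-miR-24-3p: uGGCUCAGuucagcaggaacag
mmu-miR-99b-3p: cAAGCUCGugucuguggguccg
mmu-miR-743b-3p: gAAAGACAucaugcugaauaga
mmu-miR-883a-3p: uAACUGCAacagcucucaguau

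The 6 windows hold 38 mature microRNAs of the RefSeq table, of which 29 had at least 1 MEL read. Together the 38 had 3188 MEL reads, or 3871.5 reads per 1000000 reads of the library (RPM), no spleen read and 1 testis read, which lay on miR-743b-3p. For no spleen read in 692011 the limit of 3 reads is 4.34 RPM, and the exact Poisson upper bound is 5.33 RPM. Reads of at least 18 nt were only 185552 in spleen against 541032 in MEL. Scaled to those, the spleen bound lies higher relative to MEL. Of the MEL reads, 93.6% began exactly at the annotated 5′ end. The place of these ends was itself fitted to the stacks, and only reads within 2 nt of them were counted. The share is therefore set in part by the match. These 6 windows account for 2758 of the reads of 20 to 23 nt in the chosen windows, or 3.5%, so the named microRNAs are a small share of what the rule collected.

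The let-7 microRNAs, which restrain proliferation and accompany differentiation, filled the window chr13:48630001-48640000, the eleventh of the 351 by reads of 20 to 23 nt. let-7a-5p had 529 MEL reads (642.4 RPM, 95% Poisson interval 588.8 to 699.6), let-7f-5p had 528 (641.2 RPM, 587.7 to 698.3) and let-7d-5p had 275 (334.0 RPM, 295.7 to 375.9). The level of let-7a-5p and let-7f-5p could not be told apart, and let-7d-5p lay below both beyond counting error. A stack in a window on chromosome 9 had nearly the same end and length profile as let-7f-5p. Without read sequences this does not show whether the windows share reads. The opposite arm of let-7d had 1 read, and those of let-7a-1 and let-7f-1 had none. All 3 lie on the minus strand in RefSeq, where the 5′ end is the right end in the file. There let-7f-5p, for example, had 501 of its 528 reads exactly on the annotated end, 18 starting 1 base later and 5 starting 1 base earlier. The most frequent length of all 3 was 22 nt, the annotated one, with 71.4% of the reads for let-7f-5p. A further let-7 member, let-7e-5p, had 111 reads (134.8 RPM, 110.9 to 162.3) in chr17:17960001-17970000, where it lies between miR-99b and miR-125a. Its neighbours were lower, with 16 reads for miR-99b-3p, 2 for miR-99b-5p and 5 for miR-125a-5p.

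The miR-221 and miR-222 window, chrX:18720001-18730000, was the fifteenth. miR-221-3p had 627 MEL reads (761.4 RPM, 703.0 to 823.4) and miR-222-3p had 624 (757.8 RPM, 699.5 to 819.6), levels that counting error does not separate. The 5p arm of miR-221 had 127 reads (154.2 RPM, 128.6 to 183.5), so the 3p arm was 4.94 times as frequent. The 5′ ends of the arms were 40 nt apart, which the RefSeq hairpin shows, with both arms in capitals:
Mir221: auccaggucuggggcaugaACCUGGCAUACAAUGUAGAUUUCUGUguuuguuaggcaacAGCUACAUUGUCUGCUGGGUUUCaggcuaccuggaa
The 5′ end of miR-221-3p was exact in 615 reads and 1 base later in 10. miR-222-3p was less fixed, with 554 exact reads and 69 that began 1 base later, which moves the seed by 1 base. miR-221-5p is annotated at 26 nt and was read most often at 24 nt, in 35.4% of its reads.

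The miR-17-92 cluster lay in chr14:115440001-115450000, where all 6 stacks matched. The highest were miR-92a-3p with 59 MEL reads (71.6 RPM, 54.5 to 92.4), miR-17-3p with 52 (63.1 RPM, 47.2 to 82.8) and miR-17-5p with 36 (43.7 RPM, 30.6 to 60.5). Neighbours in that order have overlapping intervals. miR-20a-5p had 15 reads, miR-19b-3p 8, miR-20a-3p 3, miR-18a-5p and miR-92a-1-5p 1 each, and miR-19a-3p none. The microRNAs of this cluster thus ranged from none to 59 reads, although the reads of miR-92a-3p and miR-19b-3p may come from a second hairpin. Both arms of miR-17 were read at similar levels, 37 nt apart from 5′ end to 5′ end, as laid out in the hairpin:
Mir17: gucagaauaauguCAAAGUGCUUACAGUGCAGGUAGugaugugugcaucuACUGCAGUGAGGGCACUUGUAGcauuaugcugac
The reads of miR-17-3p kept their 5′ end in 51 of 52. Their most frequent length was 19 nt (30.8%), 3 nt short of the annotated 22 nt. None had the annotated length, and 32.7% were longer.

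The smallest of the named clusters, miR-23a, miR-27a and miR-24-2 in chr8:86730001-86740000, had 27 reads of miR-23a-3p, 13 of miR-27a-3p, 9 of miR-24-3p, 8 of miR-23a-5p and 1 of miR-27a-5p. In 3 of the 6 windows a mature sequence is also carried by a second hairpin in the table: let-7f-5p, miR-19b-3p, miR-92a-3p and miR-24-3p each have 2. How reads with several genomic matches were treated is not given, so the reads of these 4 may come from either hairpin. Only hairpins in that table were counted. For the other microRNAs, let-7a-5p among them, a further source elsewhere in the genome was not looked for.

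On the X chromosome, chrX:64030001-64040000 held miR-743b-3p with 76 MEL reads (92.3 RPM, 72.7 to 115.5) and miR-883a-3p with 25 (30.4 RPM, 19.6 to 44.8), beside 4 reads of miR-743b-5p, 3 of miR-883a-5p and 2 of miR-742-3p. This cluster is best known from testis. In the testis band 1 read lay on it, on miR-743b-3p. Its 5′ ends were the least fixed of the 6 windows. miR-743b-3p began at the annotated base in 43 reads, 1 base later in 31 and 1 base earlier in 2. miR-883a-3p began at the annotated base in 11 reads and 1 base later in 11. Over the 6 hairpins with both arms annotated and at least 3 reads on each arm, the 5′ ends of the arms were 35 to 40 nt apart and the more frequent arm had 1.44 times (miR-17) to 19 times (miR-743b) the reads of the other.

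**Figure D1:**
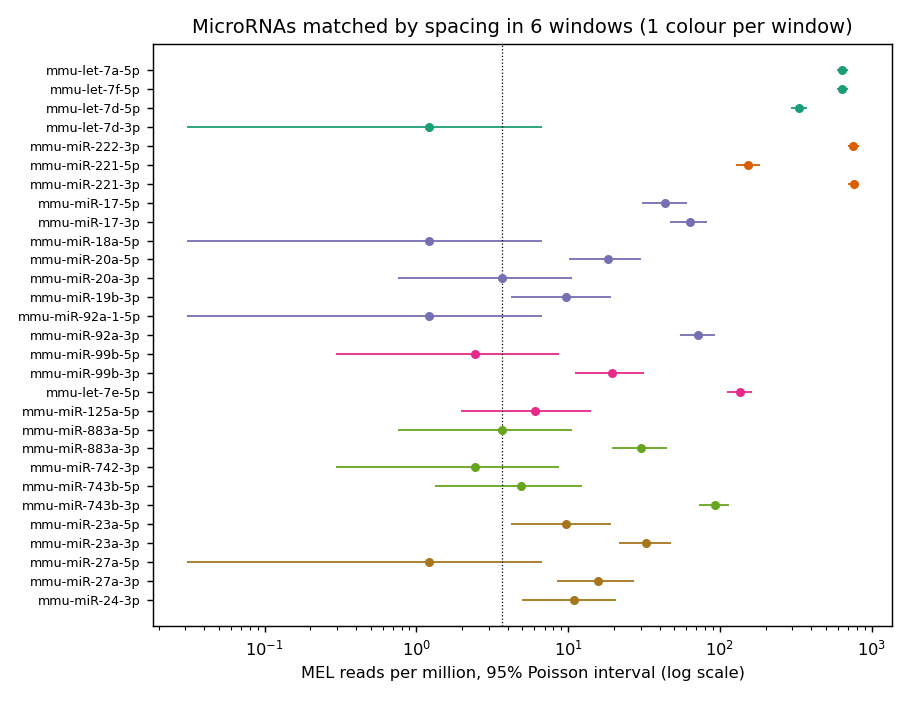
MEL RPM (log scale) of the 29 microRNAs with at least 1 MEL read in the 6 windows matched by spacing, with exact 95% Poisson intervals and 1 colour per window; the dotted line marks 3 reads (3.64 RPM). miR-221-3p, miR-222-3p, let-7a-5p and let-7f-5p are the highest, at 641.2 to 761.4 RPM.

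**Figure D2:**
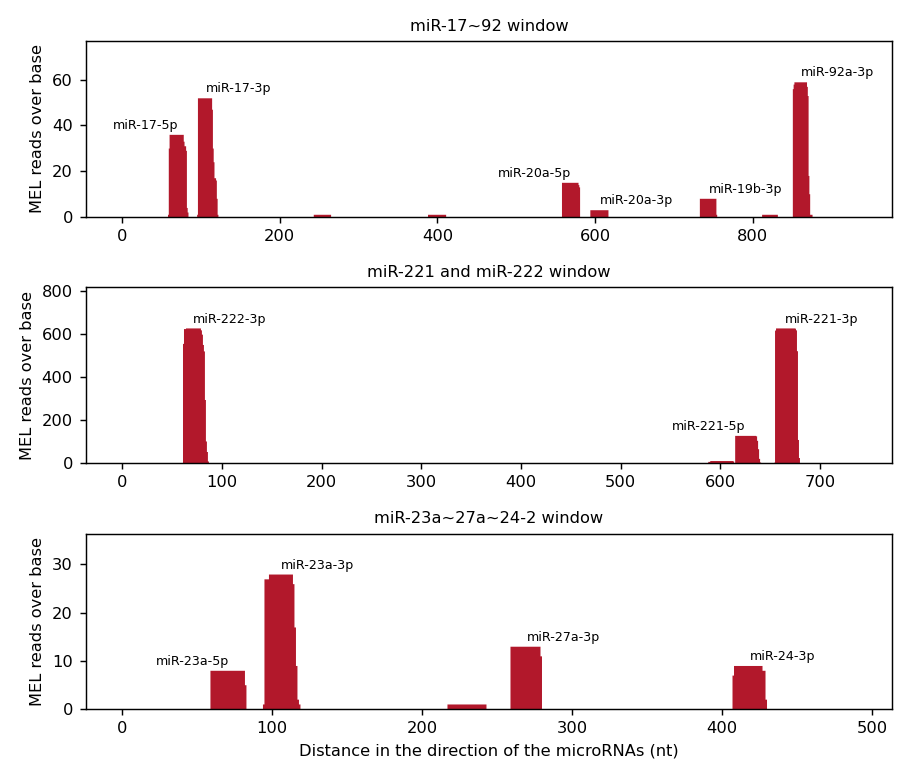
MEL reads over each base against distance in nt, in the direction of the microRNAs, for 3 of the matched windows, with the names of the matched microRNAs. Reads form narrow blocks with empty stretches between them, and miR-17, miR-20a, miR-221 and miR-23a show a block on each arm.

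The 351 windows together held 119377 MEL reads, or 14.5% of the library (95% Clopper-Pearson interval 14.4 to 14.6), of which 78831 were 20 to 23 nt long. That is 49.1% (48.9 to 49.4) of the MEL reads of this length outside the mitochondrial chromosome. A window had a median of 53 such reads, with quartiles of 29 and 167, from 20 to 12043. The reads were unevenly spread: 18 windows held 50% of them, the 12 largest 42.5% and the largest alone 15.3%. The windows lay on 22 chromosome names, 31 of them on chromosome 2, 30 on chromosome 6, 25 on chromosome 11, 16 on X and 1 on Y.

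At the limits of the rule the division is one of degree. Exactly 20 reads of 20 to 23 nt were found in 12 of the windows, while 13 windows with 19 such reads, also more than of 24 to 32 nt, were left out. Of 595 windows with at least 20 such reads, 244 were left out because the longer reads were as many or more. The smallest excess was 1 read, in 7 chosen windows, for example chr12:83240001-83250000 with 51 short and 50 long reads. The nearest windows left out had equal numbers, 52 and 52 in the window from chr3:89030001 and 23 and 23 in the window from chr6:48140001. At the other extreme, 143 chosen windows had no MEL read of 24 to 32 nt.

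**Figure D3:**
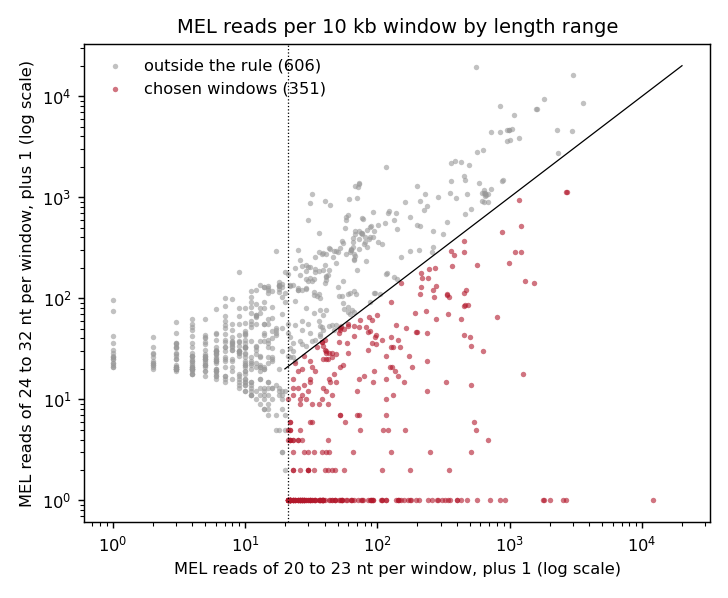
MEL reads of 24 to 32 nt against MEL reads of 20 to 23 nt per 10 kb window, each plus 1 on log scales, for the 957 windows with at least 20 MEL reads of 20 to 32 nt; 351 chosen windows are red and 606 others grey, the dotted line marks the minimum of 20 reads and the solid line equal numbers. The row of red points at the bottom is the 143 windows with no read of 24 to 32 nt.

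Over all lengths, 66% (65.8 to 66.3) of the MEL reads in the windows were 20 to 23 nt, a share set in part by the rule, 16.5% were 18 or 19 nt, 10.8% were 24 to 32 nt and 6.64% were 17 nt or less. The most frequent length was 21 nt with 22.6%. Counted by window, the most frequent MEL length of all was 20 to 23 nt in 301 of the 351, against 41.8% of the 957 windows with at least 20 MEL reads of 20 to 32 nt, and was under 20 nt in 45 and over 23 nt in 5. The maximum at 21 nt depended on a single window: without the largest one the most frequent length was 20 nt, with 20.3%, and 21 nt held 14.3%. The interval with most reads was 20 nt long in 146 windows, 21 nt in 82, 22 nt in 80 and 23 nt in 43. Its length went with other features. Windows led by a 20 nt interval had a median of 69.7% of their reads of 20 to 23 nt on that interval, against 58.0% for 21 nt, 49.6% for 22 nt and 37.1% for 23 nt. A second stack at the distance of a hairpin arm was found in 1 of the 146 windows led by 20 nt, 2 of the 82, 6 of the 80 and 5 of the 43. Reads of 24 to 32 nt were missing from 83, 38, 20 and 2 of them, in the same order.

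**Figure D4:**
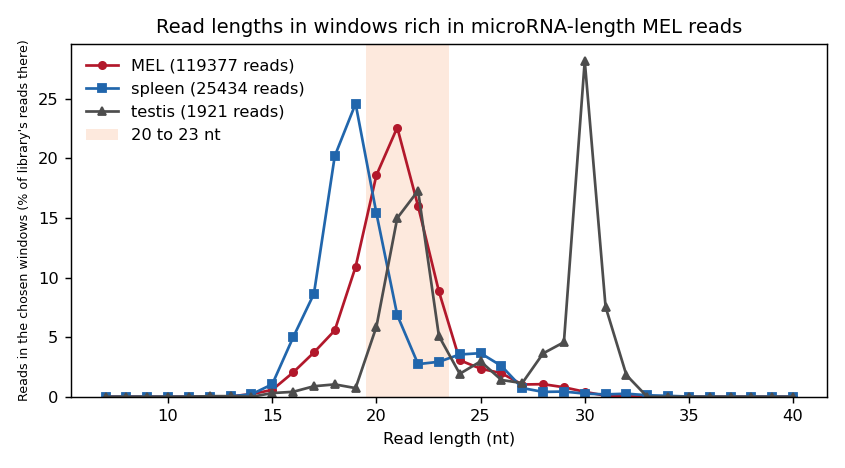
Read length in nt against the percentage of each library's reads in the 351 windows, for MEL (119377 reads), spleen (25434) and testis (1921); the shaded band is 20 to 23 nt. MEL peaks at 21 nt, spleen at 19 nt and testis at 30 nt with a second rise at 21 and 22 nt; without chr13:18300001-18310000 testis peaks at 22 nt.

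Most windows held a single dominant stack. The top interval, the most frequent pair of left and right end, took a median of 58.8% of the reads of 20 to 23 nt, with quartiles of 41.2% and 76.6% and a range of 11.2% to 100%. In the 244 windows with at least 20 such reads that were left out by the rule, the median was 18.6%. A stack of at least 20 reads of 20 to 23 nt on 1 left end was present in 279 windows, at least 2 such stacks 15 nt or more apart in 18 windows and at least 3 in 8. One end was usually more fixed than the other: the more fixed end held a median of 93.3% of the reads and the other end 61.9%. The left end was the more fixed in 176 windows and the right end in 135, with 40 ties. A microRNA has its 5′ end at the left end on the plus strand and at the right end on the minus strand, but the files do not give the strand.

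In 51 windows at least 90% of the reads of 20 to 23 nt lay on the top interval, against 6.90% of the same 957 windows, a set that includes the chosen ones and is the background below. Both ends were fixed in these 51 windows, and 27 windows had every such read on 1 interval. Of the 51, 45 were led by a 20 nt interval, 46 had no read of 24 to 32 nt, 32 had no read in spleen or testis, and none had a second stack at arm distance. Among the 300 windows with a lower share, the corresponding counts were 101, 97, 114 and 14. The 51 windows held 21920 reads of 20 to 23 nt and the 300 held 56911.

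A second stack of at least 3 reads with its left end 30 to 45 nt from the top stack was found in 14 windows (3.99%), below the background of 7.31% and the 9.24% of the 606 windows outside the rule. The outside windows hold more reads of 24 to 32 nt by the rule, and the part of this in the difference was not tested. The pair with most reads on its second stack, named after its values were seen, was in chr11:76890001-76900000, where a 23 nt top interval at 76891624 had 676 reads and a second stack 38 nt away had 80. It had too few stacks for a match by spacing and is not named. A similar pair in chr13:97960001-97970000 had 61 and 51 reads 32 nt apart. The miR-221 and miR-743b windows are among the 14. Counting single reads as a second stack raised the number to 50.

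The largest window was chr2:23010001-23020000 with 12043 reads of 20 to 23 nt (14625.0 RPM, 14365.0 to 14888.6), or 7.5% of all such MEL reads. Of these, 11678 lay on the 21 nt interval chr2:23017223-23017243. The right end was the fixed one: 12041 reads of 17 to 22 nt ended there, 341 of them at 20 nt and 6 at 22 nt. The window had no MEL read of 24 to 32 nt, no testis read of any length and 2 spleen reads, neither of 20 to 32 nt. Against the limit of 3 reads its MEL level was at least 3373.6-fold higher than in spleen and at least 5576.0-fold higher than in testis.

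Several of the other large windows had the same form, 1 stack with no read of 24 to 32 nt. chr2:133640001-133650000 had 2664 reads of 20 to 23 nt (3235.2 RPM, 3113.5 to 3360.4), 99.6% of them on a 20 nt interval starting at 133642457, with a further 1455 reads of 19 nt on the same left end. chr2:50150001-50160000 had 1811 reads, 1810 of them on the 20 nt interval from 50157465. chr2:174680001-174690000 had 1792, with 1546 of 20 nt and 246 of 21 nt on the right end 174680352. These 3 windows were led by 20 nt and had no spleen read. In chr10:16830001-16840000 the right end 16835503 held 2058 reads of 21 nt, 359 of 20 nt and 173 of 19 nt, and in chr17:53090001-53100000 the right end 53099813 held 1462 reads of 22 nt and 222 of 21 nt. These 2 windows had no read in spleen or testis. In both the left ends varied over a few bases while the right end was shared.

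A second form combined short and long reads on the same end. chr2:32080001-32090000 had 2688 reads of 20 to 23 nt (3264.3 RPM, 3142.1 to 3390.1) and 1121 of 24 to 32 nt. Its left end 32081229 held 3649 reads in several length classes: 404 of 19 nt, 91 of 20 nt, 1282 of 22 nt, 30 of 25 nt, 165 of 26 nt and 280 of 28 nt. The neighbouring window chr2:32070001-32080000 gave nearly the same series from the left end 32077546, with 403, 80, 1269, 36, 143 and 293 reads at those lengths. On chromosome 3, chr3:94890001-94900000 showed it mirrored, from the right end 94894575, with 138, 36, 605, 13, 70 and 122 reads. These 3 windows thus share maxima at 19, 22, 26 and 28 nt, with few reads at 20 nt and at 24 and 25 nt. chr6:100420001-100430000 had 1039 reads of 22 nt, 93 of 23 nt and 47 of 30 nt on the right end 100421550, with 6 at 24 nt, 1 at 25 nt and 5 at 29 nt, and its 56 testis reads were most often 30 nt long.

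Windows with several stacks of at least 20 reads were rarer. chr15:85530001-85540000 had 2 stacks, one of 593 reads of 20 to 23 nt on the left end 85537046, most often 22 nt long, and one of 803 on 85537755, most often 23 nt. It had no spleen read and 1 testis read. The most stacks, 5 of at least 20 reads, were in chr5:125880001-125890000, with 25 to 95 reads on their left ends and no match by spacing. chr11:68930001-68940000 had 4 and chr2:57030001-57040000 had 3. In these 3 windows spleen reads were present as well, 25, 33 and 133 of any length.

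Some windows had nearly the same profiles. Length-and-position profiles around the top stack were compared between the 174 windows with at least 50 reads and at least 5 intervals, in both orientations, with limits chosen after the data were seen: a cosine of at least 0.99 and read numbers within 1.25 times. By these limits 38 windows fell into 15 sets, the largest of 5 windows, and they held 18178 of the 78831 reads. One of the sets of 5 windows lay on 4 chromosomes, with left ends at chr1:172975116, chr3:96115177, chr8:113586461, chr13:21802449 and chr13:23609072. These 5 windows had 481, 459, 452, 469 and 452 MEL reads of 20 to 23 nt, and 23, 23, 23, 22 and 23 spleen reads. The treatment of reads with several genomic matches is not given, so these windows need not be separate sources. The let-7 window chr13:48630001-48640000 is in such a set too, mirrored, with the window from chr9:106080001 (cosine 0.994 around the let-7f-5p stack). An alike profile alone does not show that reads are shared. The pair on chromosome 2 described above is another set, as are chr15:3742967 and chr3:20079494, with 511 and 504 MEL reads, 27 and 28 spleen reads and 53 and 52 testis reads.

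Windows also lay near each other. With gaps below 100 kb allowed, 54 windows formed 21 runs and 297 stood alone. The longest run had 6 windows in chr6:48220001-48310000, with 40 to 98 reads of 20 to 23 nt each, and 4 more lay in chr6:48080001-48120000 with 30 to 85. A gap of exactly 100 kb separates them, and a limit that allowed it would join them. These 10 windows differed from the single stacks above: their top intervals, 21 or 22 nt long, held only 11.2% to 27.5% of the reads, and 23 to 67 MEL reads of 24 to 32 nt were present in each. All 10 together had 6 spleen reads and 2 testis reads. A run of 3 windows on chrX:64030001-64070000 includes the miR-743b window, and the other 2 had 21 reads each.

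The spleen immunoprecipitate had 25434 reads in the 351 windows, 3.68% of the library (3.63 to 3.72), against the 14.5% of MEL by which the windows were chosen. Only 185552 of the 692011 spleen reads were of at least 18 nt, against 541032 of 823452 in MEL. In the windows 14.9% of the spleen reads and 6.64% of the MEL reads were 17 nt or less. The gap between the 2 libraries is therefore narrower among reads of at least 18 nt. Of its reads of 20 to 23 nt, 7117 lay there, or 22.7% (22.3 to 23.2). Over all its reads there the most frequent length was 19 nt (24.6%), with 44.7% at 18 or 19 nt and 28% at 20 to 23 nt. The 4 windows with most spleen reads held 62.9% of them, and without these 25.3% were 18 or 19 nt and 38.4% were 20 to 23 nt. Counted by window, the most frequent spleen length was under 20 nt in 77 of the 184 windows with a spleen read, 20 to 23 nt in 70 and 24 to 32 nt in 37. In a bulk sample, fewer cells of a type and less RNA per cell cannot be told apart. The spleen reads came from few windows: 2 windows held 42.4% of those of 20 to 23 nt and 4 held 50%. At the other end, 259 windows had fewer than 3 spleen reads of 20 to 23 nt, or 73.8% against a background of 71.3% of the 957 windows. No spleen read of any length was found in 167, a count given without a background share.

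The position of the top MEL stack was shared with spleen in 89 windows (25.4%), where at least 1 spleen read of 18 nt or more began at the same left end, above the background of 19.7% and the 16.5% outside the rule. Among windows with any spleen read of that length, which were 60.1% of the background, the left end was shared in 89 of 155 chosen windows (57.4%) and in 100 of 420 others (23.8%). The windows also differ in how concentrated their MEL reads are, with a median top-interval share of 58.8% against 18.6% in the 244 others with at least 20 short reads. The part of this in the difference was not tested.

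By RPM of reads of 20 to 23 nt, 311 windows were at least 4-fold higher in MEL than in spleen, against 58.1% of the background. This count follows largely from the choice, since a window with 20 MEL reads is past 4-fold wherever spleen has fewer than 3. Scaled to reads of at least 18 nt, which were 541032 in MEL and 185552 in spleen, 219 windows were (62.4%, background 37.1%). Spleen was above MEL in 28 windows (7.98%, background 6.90%). It was at least 4-fold above in 7 (background 2.82%), or in 18 when scaled to reads of at least 18 nt (5.13%, background 5.12%). These shares lie close to the background.

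The windows with most spleen reads differed in whether the reads lay on the MEL stack. In chr17:68070001-68080000 spleen had 1735 reads of 20 to 23 nt (2507.2 RPM, 2390.6 to 2628.0) and MEL 703 (853.7 RPM, 791.8 to 919.2). Both libraries were most often 19 nt long there. Of 5773 spleen reads of 18 nt or more, 796 (13.8%) began at the top MEL left end 68078729, 53 of them on the top MEL interval, while 2641 began 2 nt further on, at 68078731. In chr7:47140001-47150000 spleen had 1281 reads (1851.1 RPM, 1751.1 to 1955.3) and MEL 136 (165.2 RPM, 138.6 to 195.4). There 1261 of the spleen reads lay on the same 20 nt interval as 125 of the MEL reads, starting at 47141252. In chr19:8790001-8800000, 190 of 393 spleen reads lay on the 23 nt interval that led in MEL with 121 of 265. In contrast, chr9:40610001-40620000 had 397 spleen reads of 20 to 23 nt and 29 in MEL, and chr4:131900001-131910000 had 257 and 30, but no spleen read of either window began at the top MEL left end. The left end with most spleen reads was thus that of the top MEL stack in 2 of these 5 windows, 2 nt from it in 1 and elsewhere in the other two.

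The testis band had 1921 reads in the windows, 0.168% of the library (0.161 to 0.176), and 831 of 20 to 23 nt, 1.61% (1.51 to 1.73) of its reads of this length. Over all its reads there the most frequent length was 30 nt (28.2%), with 53.3% at 24 to 32 nt and 43.3% at 20 to 23 nt. This rested on a single window, named after its values were seen: chr13:18300001-18310000 held 452 of the 1921 reads, and without it the most frequent length was 22 nt (22.3%), with 39.4% at 24 to 32 nt and 56% at 20 to 23 nt. Of the testis reads of 20 to 23 nt, 2 windows held 36.2% and 5 held 52.2%. No testis read was found in 238 windows, a count given without a background share. Fewer than 3 of 20 to 23 nt were found in 312 (background 68.7%, members 88.9%). At least 4-fold higher in MEL were 349 windows (background 62.4%), none was 4-fold lower (background 11.9%) and none was lower at all (background 22.5%). These counts follow largely from the choice, since a window with 20 MEL reads is past 4-fold wherever testis has fewer than 3. The gel selection, the immunoprecipitation of MEL alone and the tissue cannot be told apart in this comparison.

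The top MEL left end was also a testis left end in 59 windows (16.8%), below the background of 30.3% and the 38.1% outside the rule. This went with fewer testis reads in the chosen windows: 108 (30.8%) had a testis read of 18 nt or more, against 460 of the 606 others (75.9%) and 59.4% of the background. Among the windows with such a read the shares were closer, 54.6% of the chosen and 50.2% of the others. When at least 3 testis reads on the left end were asked for, 39 windows remained.

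The most testis reads of 20 to 23 nt were 154 in chr2:119120001-119130000 (134.6 RPM, 114.2 to 157.7), where MEL had 345 (419.0 RPM, 375.9 to 465.6) and spleen 17. Of the 155 testis reads of any length 154 began at the top MEL left end 119129634, as did all 17 spleen reads, but MEL was most often 20 nt and testis and spleen 21 nt. chr5:125310001-125320000 was alike, mirrored, with 147 in testis, 331 in MEL and 13 in spleen, and the same difference of 1 nt. In the pair at chr15:3742967 and chr3:20079494, nearly all testis reads (98 of 98 and 98 of 99) began at the top MEL left end. They were of 2 kinds, 53 and 52 of 20 to 23 nt and 45 and 47 of 24 to 32 nt, while MEL had only 13 and 33 of the longer kind. In the mirrored window 98.8% of the MEL reads shared the right end, and 43 of its 160 testis reads began at the top left end. Over all 351, the left end was found in both other libraries in 40 windows and in neither in 243, and 146 windows had no read in either. No background share is given for these counts, so they are not read as particular to the chosen windows.

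**Figure D5:**
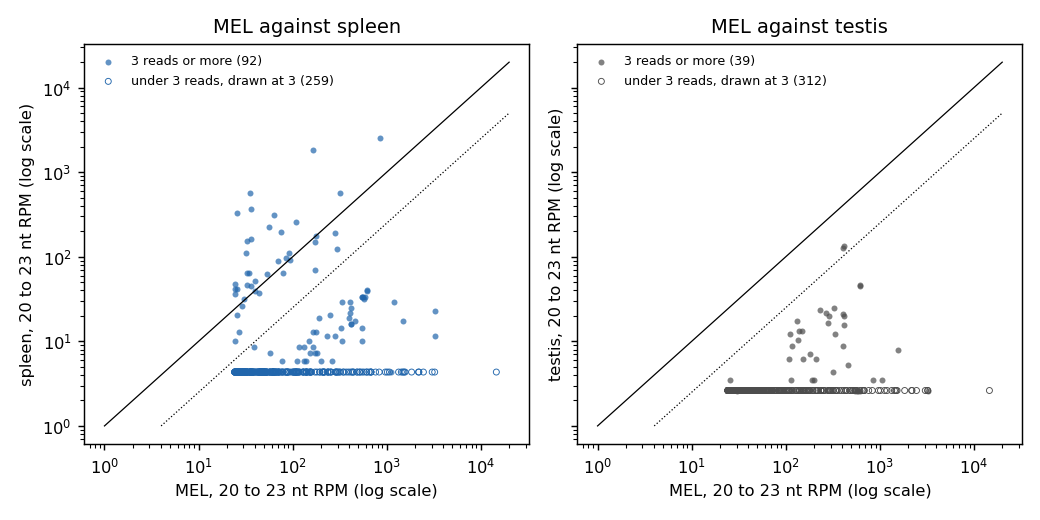
RPM of reads of 20 to 23 nt in spleen (left) and testis (right) against MEL for the 351 windows, on log scales; open points are windows with fewer than 3 reads, drawn at 3 reads, the solid line marks equal RPM and the dotted line 4-fold higher in MEL. In spleen 28 windows lie above the line of equal RPM and in testis none does.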

How the data were processed

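Each deposited file lists mapped reads, 1 per line, with chromosome, start and end; per the file contents the authors' values are positions, with no strand, sequence or count, and nothing was normalized. The submitters' processing notes name Bowtie 0.12.7 for the mapping. The sources used here do not give trimming, mapping options, the treatment of multiple matches or the build. Chromosome names ending in _random and reads beyond the end of chromosome 7 show that the build is not GRCm38.

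End minus start was taken as read length. RPM is per 1000000 reads of a library. 3 reads were 3.64 (MEL), 4.34 (spleen) and 2.62 (testis) RPM, the floor for folds. Intervals (95%, Clopper-Pearson for shares, Poisson for RPM) cover counting error only, since reads carry no molecular identifiers.

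A stack is a left end with at least 3 reads of 18 to 26 nt, at least 15 nt from others. Named windows are the 12 with most MEL, 5 with most spleen and 5 with most testis reads of 20 to 23 nt, the 5 with most stacks of at least 20 reads and those at the thresholds. The members and lists were chosen with earlier results of these data known. On simulated data the rule found 50 of 50 planted windows, and the spacing match placed 35 of 40 moved microRNA runs rightly and none wrongly. The planted windows were well past the limits of the rule, and the moved runs kept exact spacings. These results check the code and not its performance on real reads. Alternatives were other read minimums, length ranges, window widths, end definitions and scalings. Python 3.11.15, numpy 2.4.6, pandas 2.3.3, scipy 1.17.1 and matplotlib 3.10.9 were used.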

Additional observations from a re-analysis of the deposited data

How the results depend on the processing

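No paired analysis was possible because each group has 1 library, and for the same reason no replicate could be left out. The number of windows, 351, was 578 with a minimum of 10 reads, 187 with 50 reads and 206 with reads of 21 to 23 nt in place of 20 to 23 nt. It was 290 to 439 with 5 kb windows, assignment by right end, 20 to 24 nt against 25 to 32 nt, or distinct intervals. The share of MEL reads, 14.5%, was 15.9% with 10 reads, 13.3% with 50 reads, 12% with 21 to 23 nt, 22.5% with 20 to 24 nt, 13.9% by distinct interval and, in an alternative chosen after seeing the data, 13.0% without the largest window. The median share on the top interval, 58.8%, was 79.1% for the top left end and stayed at 49.3% to 71.4% in the others. Left ends shared with spleen numbered 63 to 100 and with testis 54 to 70, or 39 when at least 3 testis reads were asked for. Second stacks numbered 50 from single reads and 23 at 30 to 60 nt, against 14. Windows 4-fold higher in MEL numbered 219 to 311 against spleen and 347 to 351 against testis. At a limit of 2-fold there were 315 and 351. The windows at 20 reads rest on few reads, and a level of 3 reads or fewer in spleen or testis on fewer still. Counts under 3 reads were set at 3 reads for the folds.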
